A study of Ambystoma mexicanum with 15 samples.

Results

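C1QTNF3 and TCEA2 were followed in axolotl spinal cord before injury, after injury and after injury with ivermectin. The platform annotation gave these symbols to 4 of the 20080 probe sets on the array, which made them 2 of 8639 named genes. C1QTNF3 had 1 and TCEA2 had 3 (axo03148-r_at, axo03149-r_at and axo03150-r_at). The C1QTNF3 probe set was axo19487-f_at. The genes were chosen for the high levels of axo19487-f_at and axo03148-r_at after injury in these same arrays. Their differences between injured and uninjured cord are therefore a description, and no test is given for them. Whether the probes tell TCEA2 from its paralogs was not tested.

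The study placed 15 arrays in 5 groups of 3, each array from tissue pooled from 10 white axolotls that were 1 month old. The groups were injured cord treated with ivermectin and taken 1 day after injury, uninjured cord, and injured cord without drug taken 1, 3 and 7 days after injury. Ivermectin, which opens ligand-gated chloride channels, was injected into the central canal of the cord just before a piece of the cord was removed. The study describes a water vehicle, but the labels of the 1 day arrays without drug do not say whether those animals received it, and the labels do not say how much tissue around the cord was taken. Each replicate is a pool, so errors and p-values measure how far pools within groups differed. In pieces of tissue fewer cells of a type cannot be told apart from less RNA per cell.

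C1QTNF3, also called CTRP3, is a secreted protein of the C1q and tumour necrosis factor related family. Proteins of this family carry a collagen-like stretch and a globular C1q domain, and adiponectin, the fat hormone, is their best known relative. In mammals C1QTNF3 is made in fat, cartilage and connective tissue and is known for damping responses to bacterial lipopolysaccharide. TCEA2 belongs to the TFIIS family of transcription elongation factors, which let RNA polymerase II cut back its transcript and resume after it has stalled, and in mammals TCEA2 is known for its high level in testis.

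Across all probe sets the ivermectin arrays were closer to the uninjured arrays (correlation 0.996 to 0.997) than to the 1 day arrays without drug (0.967 to 0.968), although both were taken 1 day after injury. The 24 control probe sets of the poly-A spike-in averaged 7.43 in ivermectin arrays and 7.54 in uninjured arrays, and 8.08, 8.33 and 7.94 at 1, 3 and 7 days. The groups divide on this control as they do on C1QTNF3 and TCEA2, so the comparisons of 1, 3 and 7 days with uninjured cord, and of ivermectin with 1 day, cannot be told apart from that division. The control also differed between times, reading 8.04 to 8.13 at 1 day, 8.22 to 8.41 at 3 days and 7.81 to 8.09 at 7 days. Its part in the comparisons between times was not tested. The 18 hybridization controls averaged 10.72 with ivermectin, 10.59 in uninjured cord, and 10.75, 10.79 and 10.41 at 1, 3 and 7 days. All values are log2 expression as deposited, and differences are log2 differences ± SE from limma. In the fit of all groups each SE draws on the spread within all 5 groups, not only within those compared.

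C1QTNF3 was near the lower quartile of its array without injury and in the upper part of the array at every time after injury. Its log2 level was 4.20, 4.27 and 4.02 on the uninjured arrays. It was 7.86, 7.84 and 7.80 at 1 day, 7.99, 7.94 and 8.08 at 3 days, and 8.93, 8.69 and 8.80 at 7 days. No array taken after injury without drug came near the uninjured arrays, and the 7 day arrays were the highest of all. The lower quartile of the arrays lay between 4.21 and 4.28, and 2 of the 3 uninjured arrays read C1QTNF3 below their own quartile, so its uninjured level was not shown to be above background. At 1 day the difference from uninjured cord was 3.67 ± 0.08 (12.7-fold), at 3 days 3.84 ± 0.08 (14.3-fold) and at 7 days 4.64 ± 0.08 (24.9-fold), and these sizes depend on that background level. In order of difference C1QTNF3 stood at place 21 of 20035 probe sets at 1 day, 32 at 3 days and 12 at 7 days.

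TCEA2 was highest on axo03148-r_at, which read 4.70, 4.81 and 5.22 on the uninjured arrays. It read 8.84, 8.83 and 8.89 at 1 day, 8.05, 8.04 and 8.04 at 3 days, and 9.01, 9.04 and 9.15 at 7 days. The 3 day arrays were the lowest of those taken after injury, and still no array without drug overlapped with uninjured cord. The difference from uninjured cord was 3.94 ± 0.11 (15.4-fold) at 1 day, 3.13 ± 0.11 (8.78-fold) at 3 days and 4.16 ± 0.11 (17.8-fold) at 7 days. This placed it at 16, 56 and 18 among all probe sets. Its uninjured arrays lay at percentile 33.4 to 41.6 of their array, above the lower quartile but low.

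The other TCEA2 probe sets followed the same order of groups at lower levels. On axo03150-r_at the uninjured arrays read 3.21, 3.13 and 3.25. The 1 day arrays read 5.71, 5.70 and 5.61, the 3 day arrays 4.52, 4.38 and 4.57, and the 7 day arrays 6.19, 5.76 and 6.17. Here too the 3 day arrays lay between the uninjured arrays and the other injured ones. On axo03149-r_at the uninjured arrays read 3.12, 3.24 and 3.38. The 1 day arrays read 5.02, 4.96 and 4.55, the 3 day arrays 4.0, 4.05 and 4.18, and the 7 day arrays 5.05, 4.98 and 5.43. Both probe sets were below the lower quartile on all 3 uninjured arrays, and axo03149-r_at also on all 3 arrays of 3 days. Their differences from uninjured cord were smaller than that of axo03148-r_at, at 2.48 ± 0.11 and 1.59 ± 0.13 at 1 day, 1.29 ± 0.11 and 0.82 ± 0.13 at 3 days, and 2.84 ± 0.11 and 1.90 ± 0.13 at 7 days (axo03150-r_at before axo03149-r_at). The probe sets of TCEA2 thus had the same direction and order of groups but not the same size, and a fold change of the gene depends on which is read. At each of 1, 3 and 7 days the groups did not overlap for 4 of the 4 probe sets of both genes. The share of all probe sets whose groups do not overlap is not given, so nothing is read from this count. The shares that follow are of limma calls, which is another measure. Of all probe sets, 25.1% were called higher than in uninjured cord and 53.8% in either direction at 1 day, 29.8% and 60% at 3 days, and 28.8% and 57.7% at 7 days, where called means a limma adjusted p under 0.05.

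**Figure D1:**
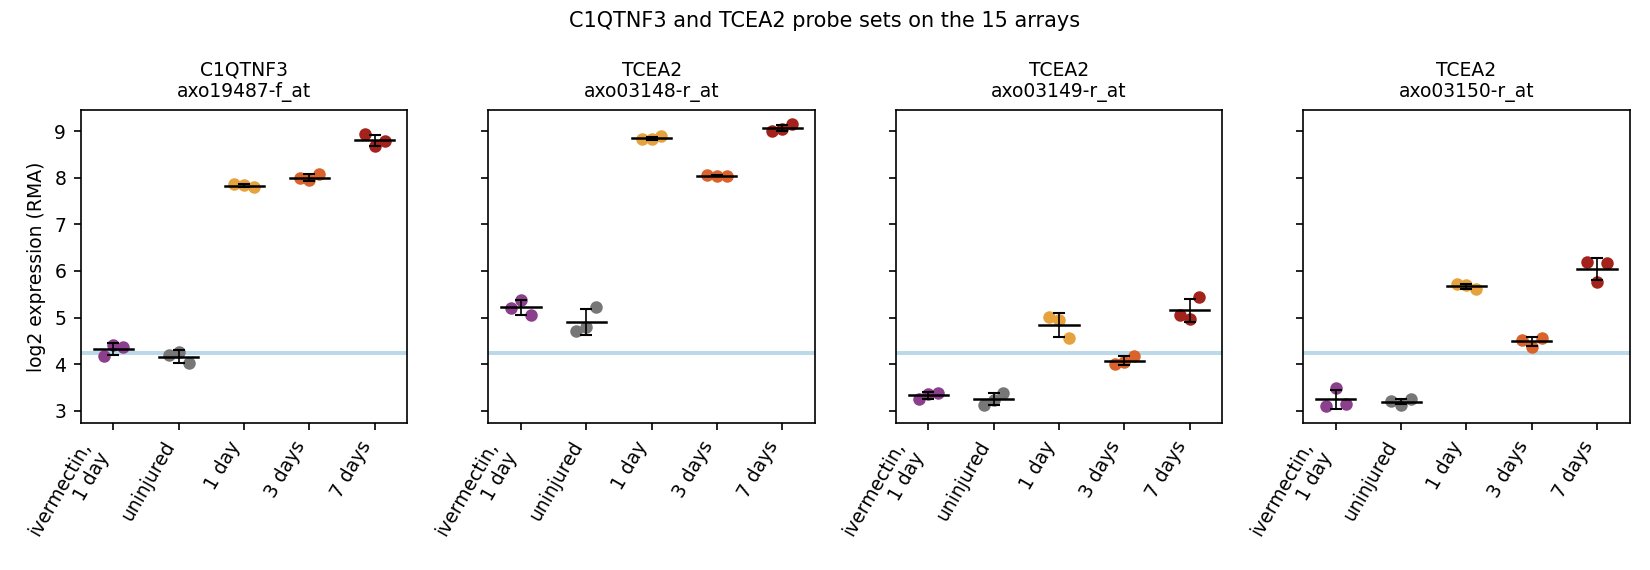
Log2 expression (vertical axis) of the C1QTNF3 probe set and the 3 TCEA2 probe sets on each of the 15 arrays, by group (horizontal axis), with points for arrays, bars for the group mean and whiskers for the SD (n = 3); the blue band spans the lower quartiles of the arrays, 4.21 to 4.28. The ivermectin and uninjured arrays overlap on each probe set, and the arrays at 1, 3 and 7 days lie above both, with TCEA2 lower at 3 days than at 1 or 7 days.

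The comparison of ivermectin with no drug at 1 day asks how the early response to injury differs under the drug. The 1 day arrays were among those that chose the genes for high values, so these differences are a description and no test is given for them. C1QTNF3 read 4.17, 4.41 and 4.38 on the ivermectin arrays, against 7.86, 7.84 and 7.80 on the 1 day arrays. The groups did not overlap, with a difference of -3.51 ± 0.08. The ivermectin arrays lay at percentile 23.8 to 28.3 of their array, 1 of 3 below the lower quartile, so the size of this difference also depends on the background level. TCEA2 on axo03148-r_at read 5.21, 5.37 and 5.07 with ivermectin, against 8.84, 8.83 and 8.89 without drug, a difference of -3.63 ± 0.11. On axo03150-r_at the ivermectin arrays read 3.11, 3.49 and 3.15 and the difference was -2.43 ± 0.11. On axo03149-r_at they read 3.25, 3.37 and 3.38 and the difference was -1.51 ± 0.13, and on both of these all 3 ivermectin arrays lay below the lower quartile. The groups did not overlap on 4 of 4 probe sets. Of all probe sets 25.4% were called lower with ivermectin and 55% in either direction, which is another measure than overlap. Nothing is read from the count of 4, since the share of all probe sets without overlap is not given and the 1 day arrays chose the genes.

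Ivermectin against uninjured cord sets injured cord under the drug beside cord that was not injured. The genes were chosen for a rise over these uninjured arrays, and a low uninjured reading would favour a positive difference here. The p-values of this comparison are therefore not independent of the choice. On each of the 4 probe sets the arrays of these groups overlapped. C1QTNF3 averaged 4.32 ± 0.131 with ivermectin and 4.16 ± 0.132 in uninjured cord (SD, n = 3 each), a difference of 0.16 ± 0.08 with a 95% interval of -0.02 to 0.33 (limma adjusted p = 0.326). TCEA2 on axo03148-r_at averaged 5.22 ± 0.154 with ivermectin and 4.91 ± 0.273 in uninjured cord, a difference of 0.31 ± 0.11 with an interval of 0.08 to 0.53 (limma adjusted p = 0.108). The uninjured array of replicate 3 read 5.22, the highest of its group, and without it the difference was 0.46 (limma adjusted p = 0.00286). The differences of axo03149-r_at and axo03150-r_at were 0.08 ± 0.13 and 0.05 ± 0.11, with intervals of -0.19 to 0.35 and -0.19 to 0.29. By limma 0 of 4 probe sets were called here and 1 had an unadjusted p under 0.05, against 6.95% of all probe sets called. Leaving out single arrays moved the difference of C1QTNF3 between 0.0817 and 0.230, that of axo03149-r_at between 0.0165 and 0.146 and that of axo03150-r_at between -0.0671 and 0.121. The intervals leave room for small differences, and on C1QTNF3, axo03149-r_at and axo03150-r_at both groups were near or below the lower quartile, where a difference may not be seen.

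The comparisons between times after injury ask whether the levels moved once they were high. All their arrays were among those that chose the genes, though these differences were not what chose them. The p-values of these comparisons are therefore not independent of the choice. From 1 to 3 days TCEA2 fell, and the change of C1QTNF3 was not called in the fit of all groups. C1QTNF3 averaged 8.0 ± 0.0687 at 3 days and 7.83 ± 0.0331 at 1 day (SD, n = 3 each). Its difference was 0.17 ± 0.08 with an interval of -0.00 to 0.34 (limma adjusted p = 0.107). In a fit of these groups alone it was called (limma adjusted p = 0.0389), and the C1QTNF3 values at 1 and 3 days did not overlap. TCEA2 fell at 3 days against 1 day on each of its probe sets. It fell by 0.81 on axo03148-r_at (limma adjusted p = 1.82e-05), by 0.77 on axo03149-r_at (limma adjusted p = 0.000156) and by 1.19 on axo03150-r_at (limma adjusted p = 5.48e-07). Of all probe sets 18.7% were called lower at 3 days than at 1 day and 40.6% in either direction.

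From 3 to 7 days both genes rose. C1QTNF3 averaged 8.80 ± 0.121 at 7 days and 8.0 ± 0.0687 at 3 days (SD, n = 3 each), a difference of 0.80 ± 0.08 (limma adjusted p = 1.61e-06). TCEA2 rose by 1.02 ± 0.11 on axo03148-r_at, by 1.08 ± 0.13 on axo03149-r_at and by 1.55 ± 0.11 on axo03150-r_at, with limma adjusted p = 2.05e-06, 7.11e-06 and 4.98e-08. So 4 of 4 probe sets rose, 1 of C1QTNF3 and 3 of TCEA2, against 22.2% of all probe sets (40.8% in either direction). These are 2 genes chosen for high levels on these arrays, so nothing is read from the count. In this comparison axo03150-r_at stood at place 23 from the highest difference of all. Of the comparisons with uninjured cord, that at 7 days gave each of the 4 probe sets its largest difference.

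At 7 days against 1 day C1QTNF3 was higher by 0.97 ± 0.08 (limma adjusted p = 1.46e-07). TCEA2 rose by 0.36 ± 0.11 on axo03150-r_at (limma adjusted p = 0.0164), a call that was lost without any of 3 single arrays (adjusted p = 0.0559 without the 1 day array of replicate 3, and 0.0785 and 0.0748 without the 7 day arrays of replicates 1 and 3). On axo03148-r_at the difference was 0.21 ± 0.11 with an interval of -0.01 to 0.44 (limma adjusted p = 0.128), and on axo03149-r_at 0.31 ± 0.13 with an interval of 0.04 to 0.58 (limma adjusted p = 0.0642). These calls turned on the setting. The axo03148-r_at difference was called with the compared groups alone (adjusted p = 0.0184) and without the uninjured array of replicate 3 (adjusted p = 0.0236), and was 0.12 and not called after cyclic loess. The axo03149-r_at difference was called with an intensity trend (adjusted p = 0.0363), without the 1 day array of replicate 1 (0.0332) and without the 7 day array of replicate 2 (0.0337). So 2 of 4 probe sets, C1QTNF3 and axo03150-r_at of TCEA2, were called higher, against 24.1% of all probe sets (40.8% in either direction). Nothing is read from this count either. Over all probe sets 4825 were higher and 3340 lower at 7 days than at 1 day, and after cyclic loess 3699 and 4028. The order of levels for C1QTNF3 was therefore uninjured, then 1 and 3 days, whose difference was not called in the fit of all groups, then 7 days. For TCEA2 it was uninjured, 3 days, then 1 day and 7 days. The difference between 1 and 7 days was not called on axo03148-r_at and axo03149-r_at in the fit of all groups. Among the other settings it was called under 2 on axo03148-r_at and under 3 on axo03149-r_at, none of them shared. Under 19 and 17 other settings it stayed not called.

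The change of C1QTNF3 from 1 to 3 days exceeded that of TCEA2 on axo03148-r_at by 0.98, and that from 1 to 7 days by 0.76. Taken over the arrays as the log2 difference between the probe sets, this gave an exact permutation p = 0.1 for each (2-sided, 3 against 3 arrays), which is the smallest p this design can give, and 0.1125 after adjustment over 9 such comparisons with the 3 TCEA2 probe sets. The comparison was chosen after the values were seen. From 3 to 7 days C1QTNF3 changed by 0.22 less than axo03148-r_at (exact permutation p = 0.2), and by 0.28 and 0.75 less than axo03149-r_at and axo03150-r_at (exact permutation p = 0.1 for each).

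Other C1q domain proteins rose more often than they fell, by smaller amounts than C1QTNF3. The smaller amounts follow from the choice of C1QTNF3 for high levels after injury. The list held 19 measured genes besides C1QTNF3. At 1 day 10 were higher than in uninjured cord and 3 lower, at 3 days 11 and 4, and at 7 days 10 and 1, with median log2 differences of 0.27, 0.24 and 0.25. Over the 8639 named genes 25.8% were higher and 29.8% lower at 1 day, 29.4% and 32.5% at 3 days, and 31.1% and 29.2% at 7 days, and the median over them was between -0.00 and 0.01. Of the 6 measured paralogs that share the C1QTNF name, C1QTNF1 rose by 1.77 ± 0.09 at 1 day, 0.69 ± 0.09 at 3 days and 1.41 ± 0.09 at 7 days. It shared with TCEA2 the lower value at 3 days. C1QTNF7 rose by 1.02 ± 0.16, 1.37 ± 0.16 and 1.98 ± 0.16, its largest difference being at 7 days, as for C1QTNF3. ADIPOQ, adiponectin itself, rose by 1.00 ± 0.06, 1.87 ± 0.06 and 1.5 ± 0.06. C1QB, a chain of complement C1q made by macrophages, rose by 2.13 ± 0.08 at 7 days, and MMRN1, a multimerin of platelets and endothelium, by 1.46 ± 0.06 at 3 days and 1.75 ± 0.06 at 7 days. COL8A1, a short-chain collagen, fell by 1.64 at 3 days. Of the remaining paralogs C1QTNF4 and C1QTNF6 were called higher at 1 day, by 0.57 ± 0.08 and 0.37 ± 0.08. C1QTNF2 and C1QTNF5 differed by -0.03 ± 0.06 and -0.19 ± 0.07 at 1 day, of which the second was called.

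With ivermectin against 1 day, 12 of the 19 were lower and 2 higher, with a median of -0.33, where 26.6% of the named genes were lower and 30.9% higher. C1QTNF1 was lower by 1.64, ADIPOQ by 1.07 and the elastic fibre protein EMILIN2 by 1.01 on the log2 scale (differences -1.64 ± 0.09, -1.07 ± 0.06 and -1.01 ± 0.06). Against uninjured cord 1 was higher and 1 lower with ivermectin, where 3.06% of named genes were higher and 4.33% lower.

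Of 6 measured genes of adiponectin receptors and their protein family, 1 was higher and 2 lower at 1 day, 2 and 2 at 3 days, and 1 and 3 at 7 days, where 25.8% and 29.8%, 29.4% and 32.5%, and 31.1% and 29.2% of named genes were higher and lower. CDH13, the cell surface cadherin that binds adiponectin, rose by 2.81 ± 0.08, 2.68 ± 0.08 and 2.82 ± 0.08 at 1, 3 and 7 days, and was lower with ivermectin than at 1 day by 2.95 on the log2 scale (difference -2.95 ± 0.08). The adiponectin receptor ADIPOR1 differed by -0.27 ± 0.05, -0.30 ± 0.05 and -0.22 ± 0.05, each called. ADIPOR2 differed by -0.01 ± 0.07, 0.16 ± 0.07 and -0.25 ± 0.07, of which the 7 day difference was called. PAQR5, a membrane progesterone receptor of the same protein family, fell by 0.60, 0.51 and 0.59. With ivermectin against 1 day 2 were higher, ADIPOR1 at 0.28 ± 0.05 and PAQR5 at 0.64 ± 0.07, and 1 was lower. The shares of named genes there were 30.9% higher and 26.6% lower.

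The other elongation factors of RNA polymerase II gave more lower than higher calls. TCEA1 and TCEA3, the other genes of the TFIIS family, had no named probe set and were not analysed here. Of 31 measured elongation factors 3 were higher and 13 lower at 1 day, 5 and 12 at 3 days, and 3 and 10 at 7 days. With median centring 8 were higher at 3 days. Of all named genes 25.8%, 29.4% and 31.1% were higher and 29.8%, 32.5% and 29.2% lower at 1, 3 and 7 days. The lower calls of the list at 3 and 7 days were thus near the share over all named genes. Their median log2 differences were -0.14, -0.06 and -0.06, and the one at 3 days was 0.01 after median centring of the arrays. ELL, which raises the elongation rate, changed by -1.0 ± 0.11 at 1 day, -1.01 ± 0.11 at 3 days and -0.97 ± 0.11 at 7 days. SSRP1, a subunit of the histone chaperone FACT, changed by -0.68 ± 0.05 at 1 day and the pausing and elongation factor SUPT5H by -0.47 ± 0.06. ELL2 changed by -1.20 ± 0.36 at 3 days and -1.31 ± 0.36 at 7 days. TCEANC, which carries a TFIIS-like N-terminal domain, rose by 0.39 ± 0.12, 1.02 ± 0.12 and 0.86 ± 0.12 at 1, 3 and 7 days, with its smallest difference where TCEA2 was already high. With ivermectin against 1 day, 14 of the 31 were higher and 3 lower, where 30.9% of named genes were higher and 26.6% lower. Among the higher were ELL (0.86 ± 0.11), SSRP1 (0.76 ± 0.05) and PAF1 (0.55 ± 0.04), whose complex travels with the polymerase. TCEANC differed by -0.02 ± 0.12 and was not called.

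Of 11 subunits of RNA polymerase II, 1 was higher and 4 lower at 1 day, 2 and 6 at 3 days, and 3 and 2 at 7 days. For named genes the shares higher and lower were 25.8% and 29.8% at 1 day. They were 29.4% and 32.5% at 3 days, and 31.1% and 29.2% at 7 days. The changes of the subunits were small. POLR2H differed by -0.26 ± 0.05 at 1 day, POLR2G by -0.30 ± 0.05 at 3 days, and POLR2I by 0.31 ± 0.05 at 3 days and 0.38 ± 0.05 at 7 days. With ivermectin 6 were higher than at 1 day and 0 lower by limma, where 30.9% of named genes were higher and 26.6% lower. Among the 6 were POLR2K at 0.40 ± 0.09 and POLR2H at 0.40 ± 0.05. Against uninjured cord 0 of the 31 elongation factors and 0 of the 11 subunits were called with ivermectin, where 3.06% and 4.33% of named genes were called higher and lower.

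**Figure D2:**
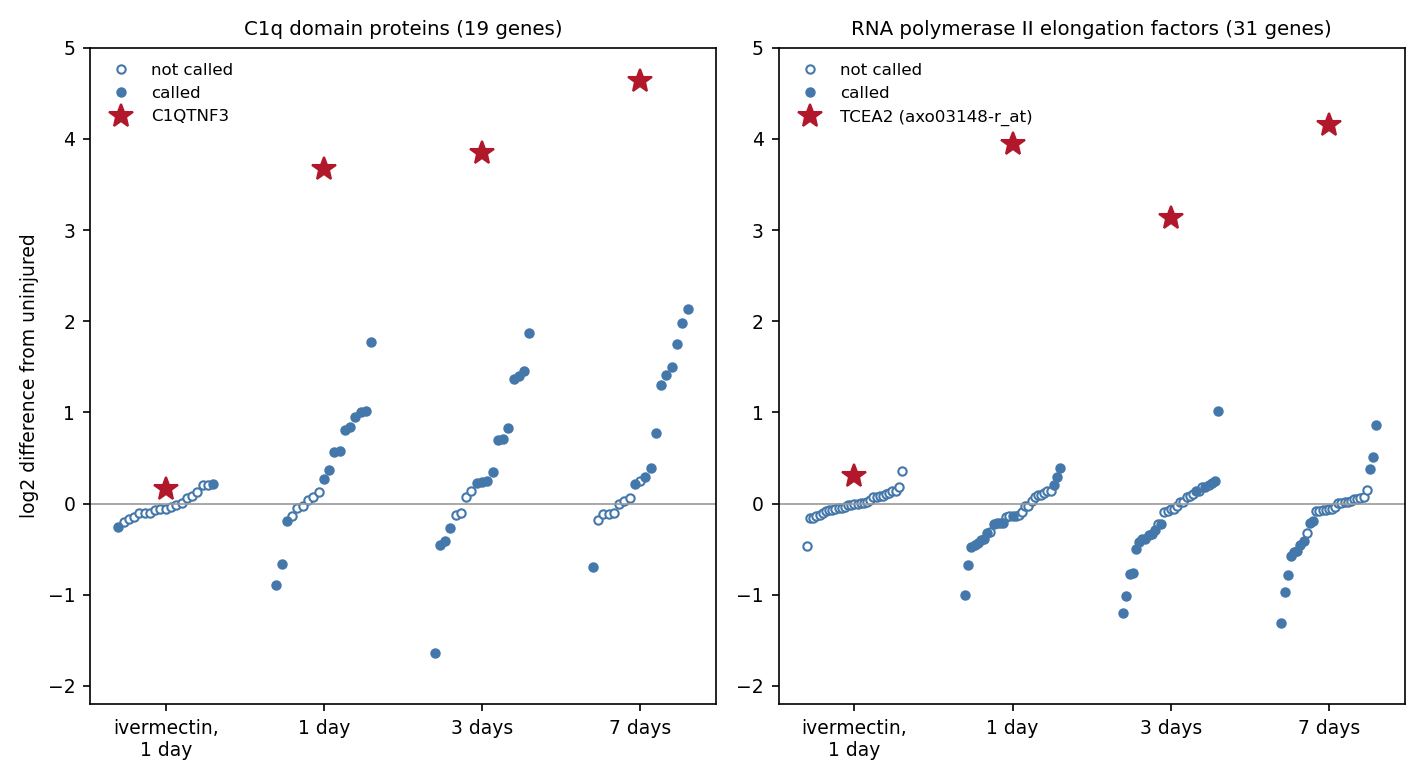
Log2 difference from uninjured cord (vertical axis) in ivermectin, 1 day, 3 day and 7 day arrays (horizontal axis) for 19 C1q domain proteins with C1QTNF3 (left) and 31 RNA polymerase II elongation factors with TCEA2 (right). Each circle is a gene, filled where limma called it, and the red star is C1QTNF3 or the TCEA2 probe set axo03148-r_at; after injury without drug both stars lie above every circle of their list, which follows from how they were chosen.

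Genes near C1QTNF3 and TCEA2 in both the size and the shape of their differences were sought. Likeness was the root mean square distance between log2 differences from uninjured cord over the 4 other groups, as a description with no test. Both genes were chosen for high levels after injury, so likeness between them was partly set by that choice. Among the probe sets that stood for named genes, C1QTNF3 and TCEA2 (axo03148-r_at) were nearest to each other, at a distance of 0.46. FBN1, the microfibril protein fibrillin, came next for both, at 0.60 and 0.59. It differed from uninjured cord by 3.37, 3.73 and 3.60 at 1, 3 and 7 days and by -0.33 with ivermectin, but another of its 3 probe sets, axo15433-r_at, changed the opposite way by -1.43 at 1 day. The smooth muscle protein TAGLN, the sarcomeric actinin ACTN2, the nervous system proteoglycan BCAN and CDH13 made up the rest of the nearest 6 of both genes, at distances of 0.92 to 1.17 except for BCAN to TCEA2 (0.90). TAGLN climbed over time, with 2.22, 3.13 and 3.56, and ACTN2 was lowest at 7 days, with 3.46, 3.64 and 2.45. BCAN had 2.73, 2.43 and 3.16, with its lowest value at 3 days as for TCEA2, but its other probe set, axo18218-r_at, had 0.88, -0.03 and 0.15 and was not called at 3 or 7 days. Distance weighs size. By correlation over the same 4 differences, which ignores it, other genes came nearest, such as PCBD2 and DPT for C1QTNF3 and BBS7 for TCEA2, each with r above 0.999. PCBD2 differed from uninjured cord by 0.59, 0.61 and 0.74 at 1, 3 and 7 days, DPT by 2.17, 2.39 and 2.95, and BBS7 by 0.20, 0.13 and 0.22. Within a distance of 0.5 there were 3 probe sets for each gene. For C1QTNF3, axo23888-f_at (0.350) and axo30296-f_at (0.452), which carry no gene name, were nearer than TCEA2 (0.456). For TCEA2 1 of its 3 was axo07114-f_at of the LIM protein CSRP2, with 3.40, 2.88 and 3.82 at 1, 3 and 7 days. At a distance of 0.37 it was nearer to TCEA2 than C1QTNF3 was. This probe set did not stand for its gene and was named after its values were seen. The nearness of C1QTNF3 and TCEA2 was seen only on axo03148-r_at, since axo03149-r_at and axo03150-r_at lay 2.29 and 1.67 from C1QTNF3.

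**Figure D3:**
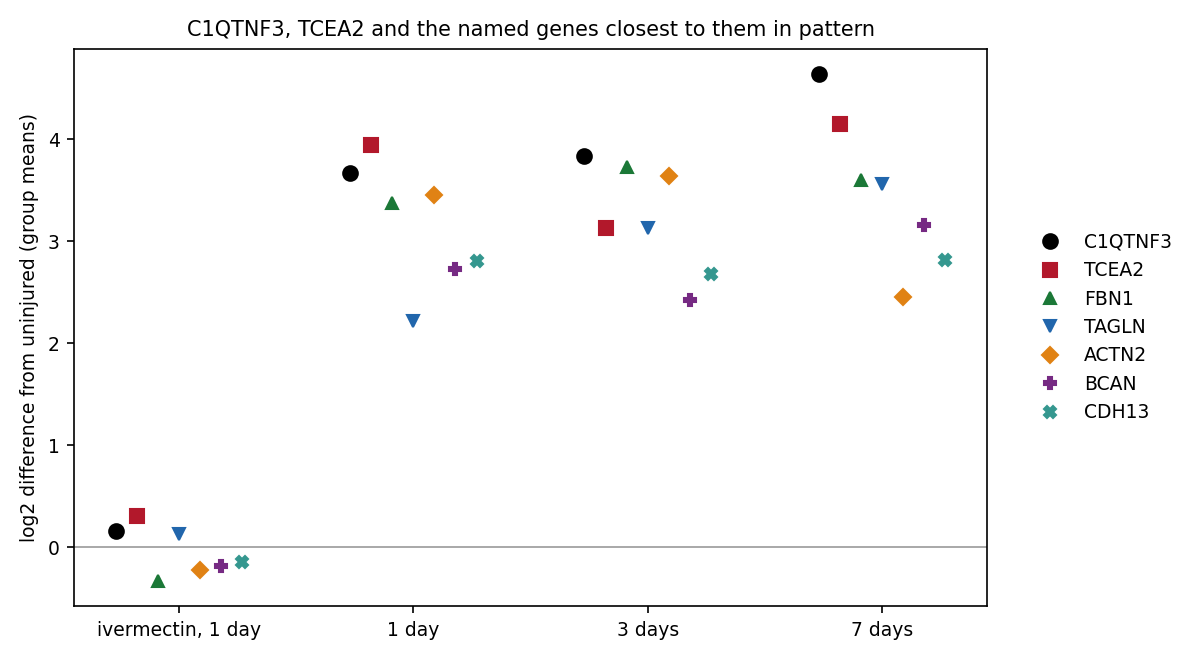
Log2 difference of the group mean from uninjured cord (vertical axis) in ivermectin, 1 day, 3 day and 7 day arrays (horizontal axis) for C1QTNF3, TCEA2 (axo03148-r_at) and 5 other named genes. These 5 were the nearest to both by the probe set that stood for each gene. With ivermectin these differences lie between -0.33 and 0.31, and after injury without drug between 2.22 and 4.64.

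Genes beside C1QTNF3 and TCEA2 in the RefSeq order of the axolotl genome (assembly UKY_AmexF1_1) had smaller differences. That follows from the choice of C1QTNF3 and TCEA2 for high levels after injury. These neighbours were picked by position alone, the 3 nearest protein-coding genes with a named probe set on each side, after the values of C1QTNF3 and TCEA2 were known. Among all named genes 25.8% were higher and 29.8% lower at 1 day. At 3 days these shares were 29.4% and 32.5%, and at 7 days 31.1% and 29.2%. Nothing is read from counts out of 6 beside these shares. Beside C1QTNF3, 3 of 6 were higher and 1 lower at 1 day, 5 and 0 at 3 days, and 4 and 0 at 7 days by limma. The secreted protease ADAMTS12 had differences of 1.01, 0.76 and 1.18 at 1, 3 and 7 days, and the adjacent AMACR, a racemase of fatty acid breakdown, differed by 0.01 at 1 day and rose by 0.74 at 7 days. Beside TCEA2, 0 of 6 were higher and 2 lower at 1 day, 1 and 4 at 3 days, and 1 and 2 at 7 days. The adjacent RGS19, a regulator of G protein signalling, differed by -0.22 at 1 day, and UCKL1 changed by -0.49, -0.71 and -0.93.

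Markers of some other tissues moved with C1QTNF3 and TCEA2 and those of others fell, and their part in the result was not tested. Over all named genes 25.8% were higher and 29.8% lower at 1 day, 29.4% and 32.5% at 3 days, and 31.1% and 29.2% at 7 days, the shares against which each list's counts are to be read. Of 27 skeletal muscle genes 26 were higher and 1 lower at 1 day, with a median of 0.90, led by MYBPC1 (3.63 ± 0.08) and ACTN2 (3.46 ± 0.09). Their log2 level averaged 9.74 with ivermectin, 9.79 in uninjured cord, 10.99 at 1 day, 11.25 at 3 days and 11.03 at 7 days, and no array at 1, 3 or 7 days lay below an array of the first 2 groups. The muscle mean was thus highest at 3 days, where TCEA2 was lowest among the injured groups without drug, and a link between the levels was not tested. Single genes did not all peak there. ACTN2 had 3.46, 3.64 and 2.45 at 1, 3 and 7 days, but MYBPC1 had 3.63, 2.93 and 2.27. Of 25 fibroblast and connective tissue genes 16 were higher and 2 lower at 1 day (median 0.78), led by FBN1 (3.37 ± 0.08) and the matrix protein DPT (2.17 ± 0.06). Their mean was 8.78 to 8.82 with ivermectin, 8.87 to 8.92 in uninjured cord, 9.61 to 9.63 at 1 day, 9.44 to 9.45 at 3 days and 9.71 to 9.73 at 7 days. Uninjured cord and the 3 times after injury stood in the same order as for TCEA2. The ependymoglial list had that order of means too, with 6.81 in uninjured cord, 7.02 at 3 days, 7.06 at 1 day and 7.34 at 7 days. Its arrays at 1 and 3 days overlapped. The germ cell means were 4.15, 4.27, 4.28 and 4.30, but its arrays at 1, 3 and 7 days overlapped, so no order of these times is read. They read 4.26 to 4.30, 4.24 to 4.30 and 4.29 to 4.31. Of its 6 genes 4 lay below the lower quartile on every 3 day array, and only KIT was called at 1 day. With ivermectin the connective tissue mean was lower than in uninjured cord, a comparison in which no TCEA2 probe set was called. The ependymoglial mean was 6.89 with ivermectin. A link between any of these lists and TCEA2 was not tested. With ivermectin against 1 day 25 of the muscle genes and 18 of the connective tissue genes were lower, and 1 of each was higher. The shares of named genes there were 26.6% lower and 30.9% higher.

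Of 23 neuron genes 14 were higher and 2 lower at 1 day (median 0.39), led by SCG3 (2.06 ± 0.09) and GAP43 (1.10 ± 0.09). Their mean was 6.13 to 6.19 with ivermectin, 6.01 to 6.06 in uninjured cord, and 6.49 to 6.51, 6.74 to 6.78 and 6.68 to 6.69 at 1, 3 and 7 days. Of 15 ependymoglial genes 6 were higher and 0 lower by limma, led by SLC1A3 (0.87 ± 0.06) and FABP7 (0.81 ± 0.11), with a mean of 6.83 to 6.93 with ivermectin, 6.78 to 6.83 in uninjured cord, and 7.03 to 7.09, 7.01 to 7.03 and 7.32 to 7.36 at 1, 3 and 7 days. Of 6 adipose genes 3 were higher and 1 lower, led by GPD1 (1.42 ± 0.07) and ADIPOQ (1.00 ± 0.06), with a mean of 5.94 to 6.04 with ivermectin, 6.13 to 6.22 in uninjured cord, and 6.57 to 6.67, 6.73 to 6.76 and 6.40 to 6.43 at 1, 3 and 7 days. The list did not move as one, since the fat hormone leptin (LEP), named after its values were seen, rose by 0.94 ± 0.06 at 1 day and changed by -3.26 ± 0.06 at 3 days and -2.92 ± 0.06 at 7 days.

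Cartilage, macrophage and epidermis lists gave more lower than higher calls at 1 day, and the macrophage list more higher calls at 7 days. Of 11 cartilage genes 3 were higher and 5 lower at 1 day, with ACAN at 1.46 ± 0.05 and MATN3 at -2.07 ± 0.08, and the median was -1.01 at 3 days. Of 16 macrophage genes 3 were higher and 7 lower at 1 day, with a median of -0.20. The 2 largest changes were rises, CD74 at 1.15 ± 0.06 and C1QB at 0.95 ± 0.08, against the direction of most calls. Among the lower were CTSS at -0.79 ± 0.06 and SIGLEC1 at -0.70 ± 0.09, named after their values were seen. At 7 days 9 were higher and 2 lower, where C1QTNF3 and TCEA2 were also highest. The macrophage mean was 7.43 to 7.47 with ivermectin, 7.56 to 7.58 in uninjured cord, and 7.45 to 7.46, 7.47 to 7.49 and 8.0 to 8.06 at 1, 3 and 7 days. Of 17 epidermis genes 3 were higher and 9 lower at 1 day, led by CLDN3 (-1.64 ± 0.07) and PKP3 (-0.89 ± 0.06). At 3 days and at 7 days 16 were lower and 0 higher by limma, with medians of -0.75 and -1.01. The epidermis mean was 10.03 with ivermectin, 10.16 in uninjured cord, and 9.86, 9.08 and 8.97 at 1, 3 and 7 days. Of 6 germ cell genes, listed because of the testis level of TCEA2 in mammals, only KIT was called (0.75 ± 0.09), and 5 lay below the lower quartile on every uninjured, 1 day and 7 day array.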

How the data were processed

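The deposited values were log2 expression per probe set, made by the authors with RMA in Affymetrix Expression Console, per the submitters' processing notes; RMA corrects background, quantile-normalizes arrays and sums up probes. Versions, and whether the 15 arrays were run together, are not given in the sources used here. The values were used as deposited, with 0 missing values and 0 duplicated arrays. Array medians lay between 5.80 and 5.89. Arrays carry no read depth, no detection call was used, and precision is set by the number of arrays.

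After removal of 45 control probe sets, a limma 3.58.1 model (R 4.3.3; lmFit and eBayes) with 1 mean per group was fitted to 20035 probe sets, with 10 residual and 4.26 prior degrees of freedom. Adjusted p-values are 2-sided and Benjamini-Hochberg over all probe sets. Symbols came from the platform annotation (10951 probe sets, 8639 genes, the probe set with the highest mean representing a gene), which can be old. In simulated data limma recovered 83.5% to 89% of 200 probe sets shifted by 0.5 (log2), by comparison, with 4 to 12 false calls. No other probe set differed between groups there, whereas 6.95% to 60% were called in these data, by comparison. The simulated figures therefore do not give the recovery or the false calls of the comparisons here.

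The members, lists and comparisons were chosen with earlier results of these data known. No p-value of either gene is given for arrays at 1, 3 or 7 days against uninjured cord, nor for ivermectin against 1 day. Those comparisons rest on the high levels for which the genes were chosen. P-values between times after injury, and for ivermectin against uninjured cord, share arrays with that choice and are not independent of it. Named genes are the 6 nearest in pattern to each gene, up to 3 called genes with the largest change in each of 4 pathway lists, TCEA1, TCEA3, ADIPOR1 and ADIPOR2, and 2 from each of 9 cell type lists. Some genes were named outside this rule, among them C1QTNF2, C1QTNF4, C1QTNF5, C1QTNF6, LEP, CTSS, SIGLEC1 and CSRP2. The labels' replicate numbers did not pair the arrays. Figures used Python 3.11.15 and matplotlib 3.10.9.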

Additional observations from a re-analysis of the deposited data

How the results depend on the processing

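Alternatives were a replicate block, the compared groups alone, an intensity trend, median centring, cyclic loess, removal of the dimmest 25% of probe sets (which took out axo03149-r_at) and leaving out each array. Of 664 values of C1QTNF3 and TCEA2 under these alternatives, 653 kept direction and call. This total includes 1, 3 and 7 days against uninjured cord and ivermectin against 1 day, which rest on the choice of the genes. No value changed direction or call in those comparisons. All that did lay in the remaining comparisons, so nothing is read from the total. Each group holds replicates 1, 2 and 3, so a replicate block cannot change a group difference, such as the -3.51 of C1QTNF3 with ivermectin against 1 day. It can change only errors and calls, and it changed no call of either gene. Same-numbered arrays had a median residual correlation of -0.01 over 30 pairs, and 3 of 15 arrays correlated best with their own number. Calls of ivermectin against uninjured cord numbered 1229 with the block and 1393 without it. Without single arrays, ivermectin against uninjured cord ranged over 0.0817 to 0.230 on C1QTNF3, 0.0165 to 0.146 on axo03149-r_at, 0.20 to 0.46 on axo03148-r_at (called without uninjured replicate 3) and -0.0671 to 0.12 on axo03150-r_at (sign turned without ivermectin replicate 2). At 7 days against 1 day the ranges were 0.17 to 0.24 on axo03148-r_at (called without uninjured replicate 3), 0.16 to 0.40 on axo03149-r_at (called without 1 day replicate 1 or 7 day replicate 2) and 0.29 to 0.50 on axo03150-r_at. With the compared groups alone, C1QTNF3 at 3 days against 1 day (0.17, adjusted p = 0.0389) and axo03148-r_at at 7 days against 1 day (0.21, adjusted p = 0.0184) were called, as was axo03149-r_at at 7 days against 1 day with an intensity trend (0.31, adjusted p = 0.0363). These differences were the same as in the main fit, and their SE was smaller. It was 0.055 against 0.081 for C1QTNF3, 0.057 against 0.106 for axo03148-r_at and 0.117 against 0.126 for axo03149-r_at. What made the spread differ between groups was not tested.

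Elongation factors higher at 1 day numbered 5 with cyclic loess and 5 with median centring, and at 3 days 8 with median centring; those lower with ivermectin against 1 day numbered 8 with cyclic loess and 6 with median centring. Polymerase subunits lower at 1 day numbered 2 with cyclic loess, and at 3 days 3 with cyclic loess and 2 with median centring. Receptors higher at 1 day numbered 2 with median centring. With probe sets averaged per gene, 2 C1q domain proteins were lower at 7 days and 1 polymerase subunit lower with ivermectin against 1 day. Calls of ivermectin against uninjured cord numbered 861 of 20035 with these groups alone. In all, 41 of 392 counts over the gene lists and nearest genes under these alternatives moved by more than 1.5 times. By Pearson correlation over the 4 differences in place of distance, 0 of the 6 nearest genes were shared for either gene. What is dim on the uninjured arrays limits every fold change from them.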
